A study of Mus musculus with 2 samples.

Results

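The microRNAs described here carry the later numbers of the mouse catalogue, from 1000 to 4999. They were chosen by name only: all genes whose symbol in release M21 of the GENCODE annotation is Mir followed by such a number, with any letter or copy suffix. Left out were Mir1224, Mir1981, Mir3065 and any gene on chromosome 12 between 109560000 and 109750000 (mm10), which removed 3 genes by name and 8 by position. This left 168 of the 2202 microRNA genes in the deposited tables. The data are microRNA sequencing libraries made from total RNA. The tissue was left cerebral cortex, taken from females aged 10 days. The mice were B6CASTF1/J, a first-generation cross between C57BL/6J, the common laboratory strain, and CAST/EiJ, an inbred strain of wild origin. There is 1 group with 2 biological replicates, called animal 1 and animal 2 by their replicate numbers, and no treatment or control group. The labels number the females differently but give both the same donor entry, so the spread between the samples may be partly technical.

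MicroRNA numbers were given in order of discovery, so high numbers mostly name hairpins found by deep sequencing, after the abundant and widely conserved families were known. A canonical microRNA is cut from a hairpin transcript by the nuclease Drosha with its partner Dgcr8 and then by Dicer, and it finds its targets mainly through the seed, bases 2 to 8 of the mature strand. Many later entries come from other sources. Mirtrons are short introns that fold into a hairpin once spliced, and some entries are cut from small nuclear or nucleolar guide RNAs or from transfer RNAs.

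The deposited values are whole-number read counts per hairpin gene, so both arms of a hairpin are summed. Own-strand counts are used throughout. The libraries held 3806078 counted reads in animal 1 and 2602935 in animal 2, and CPM below is the reads of a gene per 1000000 of these. Neural marker genes made up 40873 and 41765 CPM over the 12 listed, with 8 of 12 at 10 CPM or more in both libraries, while the muscle genes Mir1a-1, Mir1a-2, Mir133a-1, Mir133a-2 and Mir133b had no read. The remaining gene of the muscle list, Mir206, was at 10 CPM or more in both libraries and held all reads of that list, 20.8 and 28.0 CPM. The choroid plexus list held 883 and 766 CPM, the erythroid list 78.0 and 46.5, and the liver gene Mir122 42.6 and 41.9 in animals 1 and 2. Reads that map to several positions, 42.7% and 40.4% of all reads, stand apart from the genes, so levels of hairpins with near-identical copies may be too low.

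The mature sequences of the microRNAs that the results turn on are from RefSeq (GRCm38.p6, the same assembly as mm10), in which 151 of the 168 genes had an entry by symbol. They are written 5′ to 3′ with the seed in capitals. The counts do not tell the arms of a hairpin apart. Both arms are shown for Mir3099, Mir3475, Mir3059 and Mir1306, while for Mir1843a, Mir1843b, Mir1298, Mir3102, Mir3547, Mir3064 and Mir3085 RefSeq lists further mature strands that are not shown. The first group holds the most abundant genes that lie at no other small RNA gene.

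miR-3099-5p: cCAGCUUCcuuccagcccuug
miR-3099-3p: uAGGCUAGagagagguugggga
miR-1249-3p: aCGCCCUUcccccccuucuuca
miR-3475-5p: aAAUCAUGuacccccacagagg
miR-3475-3p: uCUGGAGGcacaugguuugaa
miR-3059-5p: uUUCCUCUcugccccauagggu
miR-3059-3p: cCUCUAGGgaagagaagguugg

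The next group comes from loci that are also annotated as a transfer RNA or guide RNA gene.

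miR-1983: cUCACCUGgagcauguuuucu
miR-1839-5p: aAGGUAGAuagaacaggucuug
miR-1843a-5p: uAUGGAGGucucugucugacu
miR-1843b-5p: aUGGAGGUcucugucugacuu

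The last group shows microRNAs from the Dgcr8 transcript (miR-1306), the serotonin receptor gene Htr2c (miR-1298) and mirtrons (miR-3102, miR-3547), and a pair with a common seed (miR-3064-5p, miR-3085-3p).

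miR-1306-5p: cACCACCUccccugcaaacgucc
miR-1306-3p: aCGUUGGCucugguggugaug
miR-1298-5p: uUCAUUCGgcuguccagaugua
miR-3102-5p: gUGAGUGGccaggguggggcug
miR-3547-3p: uGAGCACCaccccucucucag
miR-3064-5p: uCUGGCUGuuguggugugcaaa
miR-3085-3p: uCUGGCUGcuauggcccccuc

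Most of these seeds occurred once. Of the 44 mature sequences listed for the microRNAs that reached 10 CPM in both libraries, 6 shared all seed bases with a mature microRNA of another gene, and 3 of these relatives have numbers under 1000. The 3 are miR-1983 with miR-412-3p (uUCACCUGguccacuagccg), miR-3475-5p with miR-96-3p (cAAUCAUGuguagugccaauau) and miR-3102-5p with miR-702-5p (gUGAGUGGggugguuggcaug). The seed of miR-1839-5p holds 6 of the bases of the let-7 seed shifted by a position, as a comparison with let-7b-5p (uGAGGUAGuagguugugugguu) shows. The entry of miR-1961 (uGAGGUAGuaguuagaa) holds the whole let-7 seed, and Mir1961 had no counted read in either animal. MiR-1843a-5p and miR-1843b-5p share a run of 20 bases in different frames, so their seeds differ by a shift although they come from paralogous genes. A read covering only that run fits both genes. So does a read of the whole miR-1843b-5p, because all its 21 bases also occur in the Mir1843a hairpin.

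Of the 168 genes, 24 were detected, meaning 10 CPM or more in both libraries (38.1 reads in animal 1 and 26.0 in animal 2). That is 14.3%, near the 13.9% of all 2202 microRNA genes. Genes numbered under 1000 were detected in 239 of 514 cases (46.5%), and those numbered 5000 and over in 22 of 470 (4.68%). At least 1 read in either library was found for 92 of the 168 (54.8%), against 35% of all microRNA genes, and 76 had none. A gene with no read may hold up to 0.788 CPM in animal 1 (1.15 in animal 2), counting error only. This bound leaves out reads set aside as mapping to several positions. A further 6 genes reached 10 CPM in 1 library alone, 4 in animal 1 and 2 in animal 2.

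**Figure D1:**
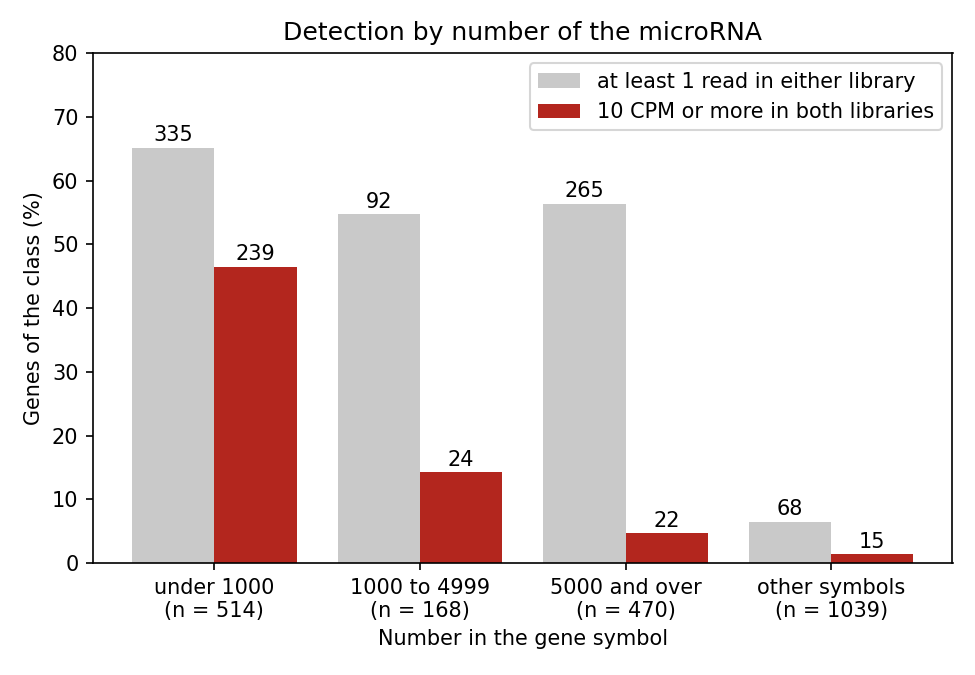
Share of microRNA genes (vertical axis, %) with at least 1 read in either library (grey) and with 10 CPM or more in both (red), by the number in the symbol; each bar carries its number of genes, and the 11 genes left out are not drawn. The genes numbered 1000 to 4999, 24 detected of 168, lie between the earlier and the later numbers in detection.

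Together the 168 genes held few of the counted reads, 0.923% in animal 1 (exact Clopper-Pearson 95% interval 0.914 to 0.933) and 0.771% in animal 2 (0.760 to 0.782). The mean was 0.847% ± 0.108 (SD, n = 2). Genes numbered under 1000 held 76.4% and 70.5%, and those numbered 5000 and over 0.240% and 0.169%. The median level of the detected genes was 73.7 CPM, against 584 CPM for detected genes numbered under 1000 and 18.9 CPM for those numbered 5000 and over. The most abundant of the 168, Mir1983, ranked 70 among all microRNA genes by mean CPM.

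Reads were concentrated in few genes. The leading 3 (Mir1983, Mir3099 and Mir1839) held 58.6% and 64.9% of all reads of the 168 in animals 1 and 2, and the leading 7 held 80.6% and 84.2%. The same 11 genes stood at the top in both animals, and these 11 were the genes with 100 CPM or more in both. By number, detection was uneven: 4 of 18 genes from 1000 to 1799, 7 of 63 from 1800 to 1999, 0 of 4 from 2000 to 2999, 11 of 53 from 3000 to 3199 and 2 of 30 from 3200 to 4999.

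**Figure D2:**
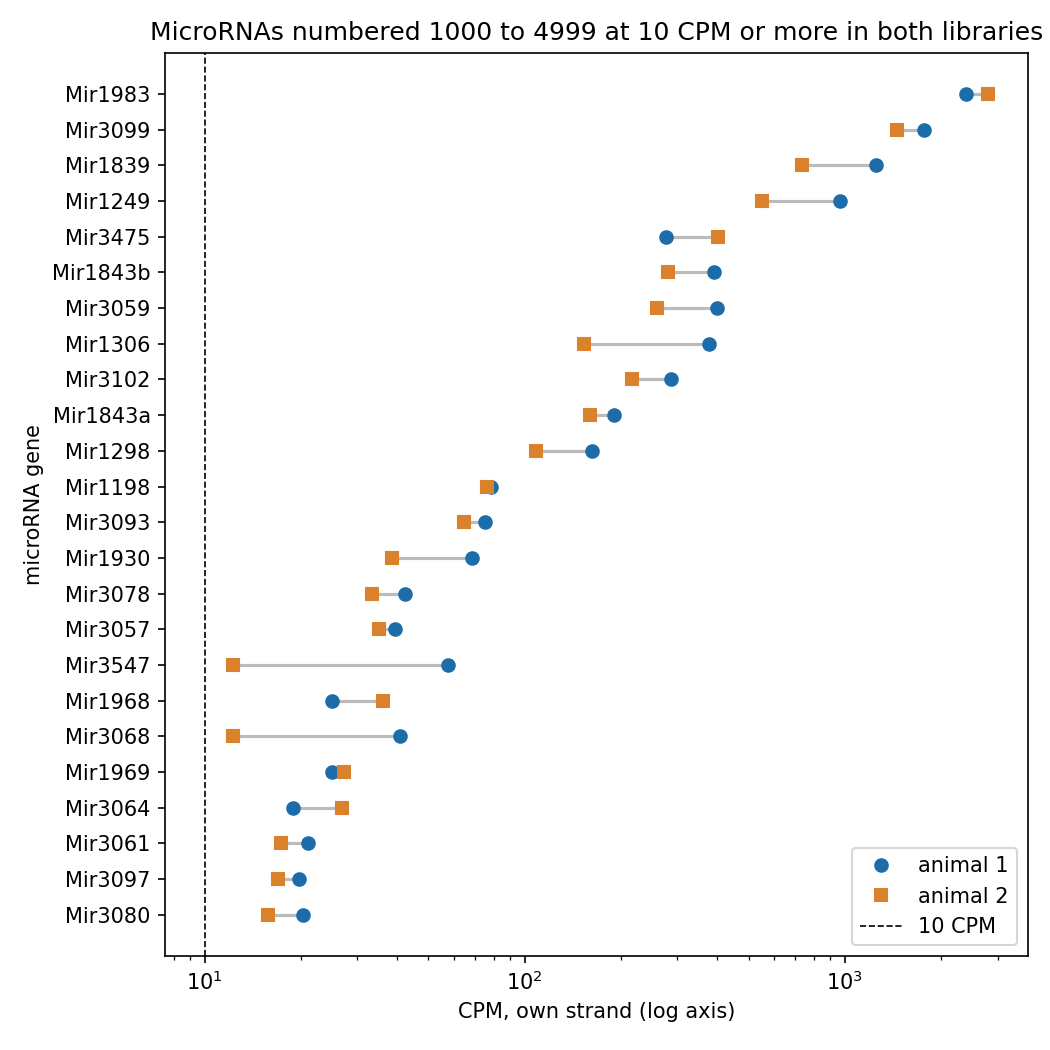
CPM on a log axis (horizontal) of the 24 genes with 10 CPM or more in both libraries (vertical), animal 1 as circles and animal 2 as squares, joined by a line; the dashed line is 10 CPM. Mir1983 lies highest, at 2389 and 2806 CPM, and Mir3547 and Mir3068 show the longest lines.

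Loci shared with other small RNA genes supplied about as many reads as all the rest, most of them from Mir1983. Of the 168 genes, 10 overlap a transfer RNA, small nucleolar, small Cajal body or other small RNA gene in GENCODE or RefSeq, and 5 of these were detected (Mir1983, Mir1839, Mir1843b, Mir1843a and Mir3068). The 10 held 46.3% of the reads of the 168 in animal 1 and 51.9% in animal 2, and the 9 of them other than Mir1983 held 20.5% and 15.5%. Counts per gene do not tell microRNA reads from other fragments of the overlapping small RNAs. Among the other 158 genes 19 were detected (12.0%). Among the microRNA genes outside the 168, 35 overlap such a gene, and 6 of them were detected (17.1%), with 0.0332% and 0.0216% of counted reads.

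Mir1983 (ENSMUSG00000088148.1, chromosome 13, 21896918 to 21897049, minus strand) had 9092 reads in animal 1 and 7303 in animal 2, or 2389 CPM (95% interval 2340 to 2438) and 2806 CPM (2742 to 2871). It lies outside longer genes of its strand. RefSeq places the isoleucine transfer RNA gene n-TItat14 at 21896938 to 21897031, inside the annotated hairpin, and 13 of the 21 bases of miR-1983 lie within it, the others beyond its end. The microRNA is known as a product of a transfer RNA transcript that can also fold as a hairpin. Without Mir1983, the group's share of counted reads was 0.684% and 0.490%.

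Guide RNA genes underlie the next loci. Small Cajal body RNAs direct chemical modification of the RNAs of the splicing machinery. Mir1839 (ENSMUSG00000104618.1, chromosome 7, 81529916 to 81529988, plus strand) coincides with a GENCODE small Cajal body RNA gene in an exon of the non-coding RNA 2900076A07Rik. It had 4758 and 1916 reads, or 1250 and 736 CPM in animals 1 and 2. Mir1843b (chromosome 1, 159340358 to 159340423), in an intron of the ubiquitin ligase gene Cop1, lies within Scarna3a and had 1489 and 727 reads, or 391 and 279 CPM. Its paralog Mir1843a (chromosome 12, 80391613 to 80391677) lies in an intron of Dcaf5 and partly in an exon of the non-coding RNA CT030161.1. Mir1843a is also on Scarna3b and had 723 and 416 reads, or 190 and 160 CPM. The levels of Mir1843a and Mir1843b are uncertain because reads of their shared run of 20 bases, or of the whole miR-1843b-5p, fit both genes. By the reads counted, Mir1843b was above Mir1843a in both animals, and how shared reads were assigned was not tested.

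Mir3068 (chromosome 12, 87437679 to 87437757) lies in an intron of Alkbh1 and partly in an exon of the non-coding RNA Gm29362. It is also on a GENCODE small nucleolar RNA gene and had 155 reads in animal 1 and 32 in animal 2. The others of this kind had few reads: Mir1949 had 25 and 13, Mir3069, within Scarna13, had 23 and 6, and Mir1291, on Snora34, had 15 and 7. Mir3084-1 and Mir1897 had none.

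Hairpins inside host genes made up most of the rest. Of the 168 genes 124 (73.8%) lay in a longer gene of the same strand, against 62.6% of those numbered under 1000, and 21 of the 24 detected did (87.5%), against 69.9% of the detected genes numbered under 1000. Of the 24, 10 were intronic, 9 lay wholly in an exon of at least 1 annotated transcript, 2 partly in an exon, and 3 (Mir1983, Mir3475 and Mir1969) outside such genes.

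Mir3099 led the hosted genes. It lies in an intron of Usp29 (ENSMUSG00000092815.1, chromosome 7, 6803587 to 6803670, plus strand), a gene of the imprinted Peg3 region that is active on the paternal chromosome. It had 6736 and 3799 reads, or 1770 CPM (1728 to 1813) in animal 1 and 1460 CPM (1413 to 1507) in animal 2. The mean was 1615 CPM ± 219 (SD, n = 2). Mir3059 (chromosome 10, 101772692 to 101772772), in an intron of the glycosyltransferase gene Mgat4c, had 1519 and 672 reads, or 399 and 258 CPM.

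Mir1249 (chromosome 15, 84951526 to 84951623), in an exon annotated to 5031439G07Rik, had 3680 reads in animal 1 and 1429 in animal 2, or 967 and 549 CPM. Mir3475 (X chromosome, 140310948 to 140311012, between genes) had 1051 and 1045 reads, or 276 and 401 CPM. Among the 11 leading genes, Mir3475 and Mir1983 were the ones with the higher CPM in animal 2. Mir1198 (X chromosome, 7807101 to 7807221) lies in an intron of Gripap1, which encodes a partner of the glutamate receptor scaffold GRIP. It had 299 and 199 reads, or 78.6 and 76.5 CPM, the smallest relative difference in CPM between the animals among the 24. This ranking holds for CPM only. After the TMM scaling used below, its log2 ratio was -0.17, farther from equality than that of Mir3093 (0.01).

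The serotonin receptor gene Htr2c, which is active in choroid plexus and in neurons, carries several microRNAs in its introns. Of a list of 6, 5 had a row in the tables. Mir1298 (X chromosome, 147064905 to 147065002) led them with 618 and 283 reads, or 162 and 109 CPM in animals 1 and 2. Mir1264 (147010601 to 147010686) had 96 and 17 reads, or 25.2 and 6.53 CPM, and Mir1912, 1073 bases from it, had 1 read in each animal. The older entries of the same gene, Mir448 and Mir764, had 68 and 39 and 46 and 15 reads. Hairpins of a single host gene differed widely in reads, and Mir1298 exceeded Mir1264 by 6.44 times in animal 1 and 16.6 times in animal 2.

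Mir1306 lies in an exon of Dgcr8 (chromosome 16, 18284239 to 18284317, minus strand), the gene for the RNA-binding partner of Drosha. The Dgcr8 messenger is itself cut by Drosha at hairpins near its start, which lowers Dgcr8 protein. Mir1306 had 1433 reads in animal 1 and 399 in animal 2, or 377 CPM (357 to 397) and 153 CPM (139 to 169). The neighbouring hairpin of the same transcript, Gm24572, which RefSeq also names Mir3618 and which begins 232 bases away, had 4 and 0 reads.

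Mirtron positions, with both hairpin ends within 5 bases of the ends of an annotated intron, were found for 3 of the 168 genes. Mir3102 (chromosome 7, 100882306 to 100882409), at Arhgef17, had 1086 and 565 reads, or 285 and 217 CPM. Mir3547 (chromosome 17, 25245551 to 25245638), at Baiap3, a gene of vesicle trafficking, had 219 reads in animal 1 and 32 in animal 2, or 57.5 and 12.3 CPM. Mir1982, at Oaz1, had 33 and 9 reads, below 10 CPM in both libraries.

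Neighbours of the best known neural microRNAs gave more counted reads than these did. Mir3078 (chromosome 14, 64591185 to 64591271) lies in an exon of the Mir124a-1 host transcript, 443 bases from Mir124a-1. It had 161 and 87 reads, or 42.3 and 33.4 CPM, whereas Mir124a-1 had 13 and 7 reads. Mir3093 (chromosome 3, 88215171 to 88215257) lies 340 bases from Mir9-1 in an intron of Gm3764 and had 286 and 168 reads, or 75.1 and 64.5 CPM, whereas Mir9-1 had 131 and 68. Mir124a-1 and Mir9-1 have further copies in the genome by symbol, Mir3078 and Mir3093 do not, and the part of reads set aside as mapping to several positions was not tested. The ratio within each pair was alike in the animals, 12.4 and 12.4 for Mir3078 to Mir124a-1, and 2.18 and 2.47 for Mir3093 to Mir9-1.

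The other detected genes were low. Mir1930, in an exon of the ubiquitin-conjugating enzyme gene Ube2g2, had 261 and 100 reads, and Mir3057, in an exon of Apba3, had 150 and 91. Mir1968, in an intron of Grtp1, had 95 and 94, and Mir1969, between genes, had 95 and 71. Mir3061, in an exon of the phosphatase gene Ppp2ca, had 80 and 45, and Mir3064, in an exon of the RNA helicase gene Ddx5, had 72 and 70. Mir3080, in an intron of Tcf20, had 77 and 41, and Mir3097, in an intron of the signalling regulator gene Rgs12, had 75 and 44. Mir3085, which shares the seed of miR-3064-5p, had 58 and 23 reads and was at 15.2 CPM in animal 1 but 8.84 CPM in animal 2.

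On the opposite strand of another microRNA gene lie 5 of the 168 genes, none of them detected. Mir3074-1 (chromosome 13, 63301199 to 63301283), which faces Mir24-1, had 56 and 19 reads, or 14.7 and 7.30 CPM, against 161 and 81 for Mir24-1. Its copy Mir3074-2, facing Mir24-2, had none, and Mir24-2 had 170 and 49. RefSeq lists the same miR-3074-5p for both Mir3074 copies, and Mir24-1 and Mir24-2 are copies by symbol. The part of their reads set aside as mapping to several positions was not tested. Mir3107, facing Mir486, had 6 and 4 reads, and for this pair too the part of reads set aside was not tested. Mir3073a had 1 read, in animal 1, and Mir3073b none.

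The 2 libraries were compared gene by gene with an exact binomial test given TMM library sizes, two-sided and adjusted by Benjamini-Hochberg over the 531 microRNA genes with at least 10 reads summed. This test sets these libraries against each other, not conditions, and covers counting noise only. Of the 64 genes tested, 17 passed at 0.05 (26.6%), against 51.6% of all genes tested. Higher in animal 1 were 13 (26.9% of all genes tested were), and higher in animal 2 were 4 (24.7%). Of the 64, 5 passed and differed at least 2-fold (7.81%), against 16.9% of all genes tested. With library totals in place of TMM, 189 of the 280 genes passing over all microRNA genes were higher in animal 1 (67.5%), against 143 of 274 with TMM (52.2%). The share rose with depth: of genes with at least 100 reads summed, 16 of 25 passed (64.0%), against 235 of 307 over all microRNA genes (76.5%). The median log2 ratio, animal 1 over animal 2, was 0.18 for the 64 and 0.04 for all genes tested, and the median size of the ratio was 0.49 and 0.51.

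Among the genes that passed and had reads in both animals, the largest log2 ratios toward animal 1 belonged to Mir3547 (2.00, exact 95% interval 1.48 to 2.61, binomial adjusted p = 2.2e-17), Mir1264 (1.71, 0.99 to 2.58, adjusted p = 8.1e-07) and Mir3068 (1.51, 0.97 to 2.12, adjusted p = 7.2e-09). These rest on 32, 17 and 32 reads in animal 2. Mir1306, with far more reads, was 2.13-fold higher in animal 1 (log2 ratio 1.09, interval 0.93 to 1.26). Mir1930 (0.63), Mir1249 (0.61), Mir1839 (0.56), Mir3059 (0.42), Mir1298 (0.37), Mir1843b (0.28) and Mir3102 (0.19) were higher in animal 1 by smaller ratios. Mir3099 passed as well, at a log2 ratio of 0.07 (0.02 to 0.13), and neither it nor Mir3102 passed with DESeq2 size factors. Mir1247, named after its values were seen, had 15 reads in animal 1 and none in animal 2. Its 15 reads, taken as exact and set against the floor of 3 in animal 2, make it at least 3.42-fold higher in animal 1 by CPM. The exact interval of its log2 ratio after TMM, which also covers the counting error of the 15 reads, begins at 1.09. It lies in an exon of Dio3os, at the far end of the imprinted region of chromosome 12.

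Toward animal 2 stood Mir3475 (log2 ratio -0.74, interval -0.87 to -0.62, binomial adjusted p = 5.0e-31), Mir1968 (-0.74, -1.16 to -0.31), Mir3064 (-0.71, -1.21 to -0.21) and Mir1983 (-0.44, -0.48 to -0.39). Mir3064 did not pass with library totals only. Of the loci that share a small RNA gene, 8 were tested; Mir1839, Mir1843b and Mir3068 were higher in animal 1, Mir1983 in animal 2 and 4 did not pass. Mir1843a had a log2 ratio of 0.05 (-0.13 to 0.22), below that of its paralog, although reads can fit both genes. The neighbours Mir3093 (0.01, -0.26 to 0.30) and Mir3078 (0.13, -0.25 to 0.53) did not pass.

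**Figure D3:**
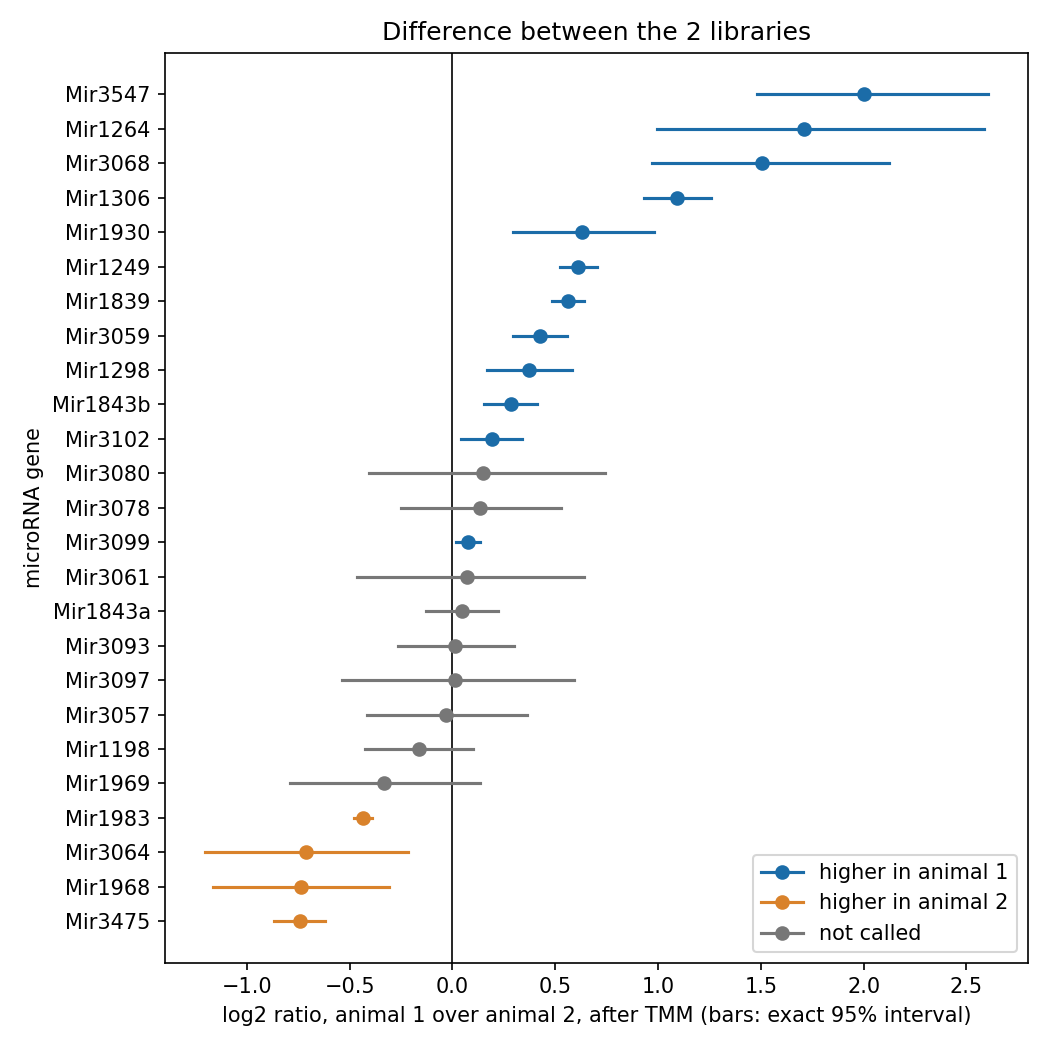
Log2 ratio of animal 1 over animal 2 after TMM (horizontal axis) for the 24 detected genes and Mir1264, with exact 95% intervals; blue passed as higher in animal 1, orange as higher in animal 2, grey did not pass. The ratios run from -0.74 for Mir3475 to 2.00 for Mir3547.

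Across the 64 tested genes, the Spearman rank correlation between the animals was 0.906, and across all 531 it was 0.956. These values run across genes, which share the libraries and are no replicates, and the 64 span lower counts.

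**Figure D4:**
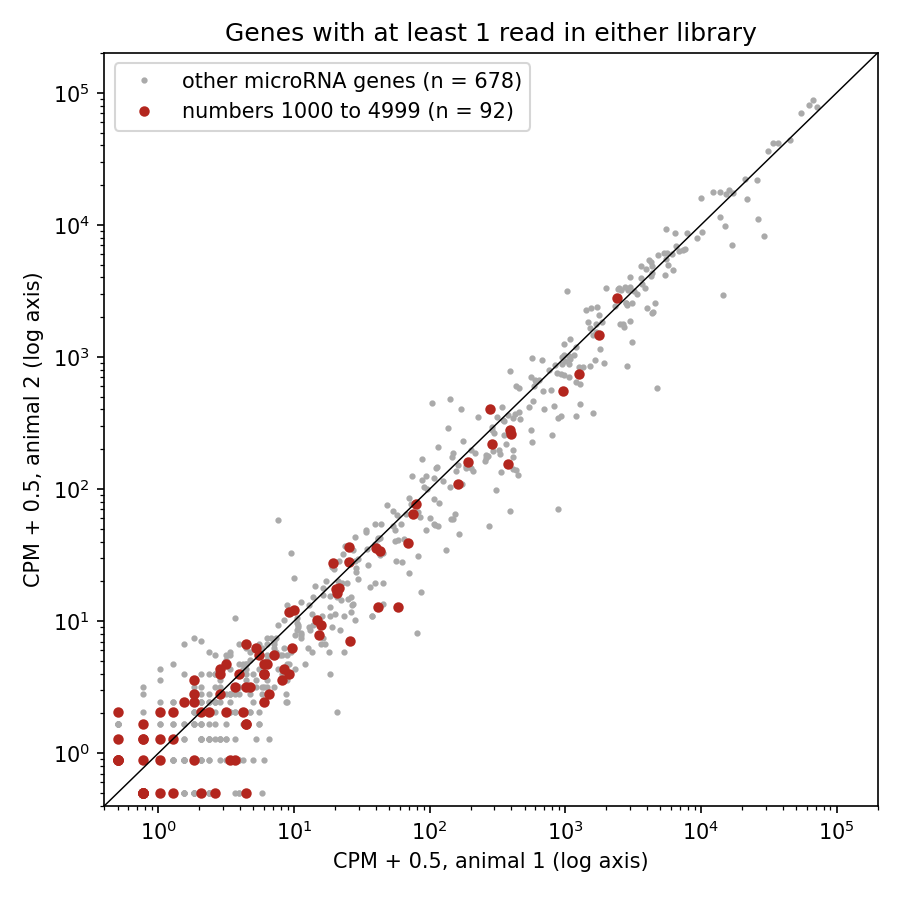
CPM + 0.5 in animal 1 (horizontal) and animal 2 (vertical), both log axes, for the 92 genes numbered 1000 to 4999 with a read (red) and 678 other microRNA genes (grey); the line marks equal CPM. The red points reach up to Mir1983 and lie along the line with the grey ones.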

How the data were processed

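Each library has 1 deposited table of whole-number read counts for 2202 microRNA genes, with columns for both strands, the gene's own strand and the opposite strand. Per the notes beside the tables the build was mm10 and the annotation GENCODE M21. For the aligner and the counter, names and versions were not given in the sources used here. The 4 rows of unassigned reads entered neither library sizes nor tests.

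Symbols, positions and host genes came from the M21 annotation, and sequences and transfer RNA genes from RefSeq (GRCm38.p6). CPM was computed over all reads counted to microRNA genes, with exact Clopper-Pearson 95% intervals; the files show no molecular identifiers, and intervals and the floor of 3 reads cover counting error only. TMM factors (1.07 and 0.932) were from edgeR 4.0.16 in R 4.3.3, and log2 ratios have 0.5 added to each count. The exact conditional binomial test, run in Python 3.11.15 with scipy 1.17.1, replaced a quasi-likelihood comparison, since 1 group leaves no contrast. It was tested on simulated counts with counting noise only and with known library sizes. That simulation cannot cover spread between animals or error in the TMM factors.

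The genes and lists were chosen with earlier results of these data known. The text names genes at 10 CPM or more in both libraries, those passing the test with at least 20 reads summed, and listed genes with a read. Alternatives covered thresholds, scaling, strand column, filters, copies and single libraries.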

Additional observations from a re-analysis of the deposited data

Results flagged for a closer look

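Reads on the strand opposite a gene lie outside the comparisons above and exceeded the 3 reads that a count of 0 allows, in both libraries, for 4 of the 168 genes. For 3 of them another counted microRNA gene occupies that strand. Mir3074-1 had 161 opposite-strand reads in animal 1 and 81 in animal 2, equal to the own-strand reads of Mir24-1. Mir3074-2 had 170 and 49, equal to those of Mir24-2, and Mir3107 had 110 and 75, equal to those of Mir486.

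Mir3083 had 33 and 29 reads on its own strand and 38 and 32 on the other, where the tables count no microRNA gene. RefSeq lists there the hairpin Gm51291, also named Mir3083b. The Mir3083 hairpin equals its own reverse complement at 58 of 64 positions (90.6%), the highest share among the 136 genes of the group for which RefSeq gives the hairpin sequence, whose median was 29.1%. The mature strands below, one from each gene, differ by a shift and by single bases, and how the counting assigned such reads was not tested.

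miR-3083-5p: aGGCUGGGaauauuucagagau
miR-3083b-5p: aAGGCUGGgaauguuucggaga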

How the results depend on the processing

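By threshold, 62 of the 168 genes were detected at 1 CPM and 11 at 100 CPM in both libraries, against 24 at 10 CPM. Single libraries gave 26 to 28. With all reads in place of counted reads as the denominator, 16 were detected, and in the unstranded column 27. The share of counted reads fell from 0.847% to 0.587% without Mir1983, and single libraries gave 0.771% to 0.923%. Library totals in place of TMM moved the median log2 ratio of all genes by 0.20 toward animal 1. The genes passing between the libraries then numbered 21 (18 higher in animal 1, 3 in animal 2), and 15 (11 and 4) with DESeq2 size factors, against 17; of the 17, 16 and 15 passed again. Over all genes tested, 67.5% of those passing were higher in animal 1 with library totals and 46.7% with DESeq2 size factors, against 52.2%. All other settings tried gave 17. With a filter of at least 50 reads summed, 16 of these were the same genes. Among 25 named genes, 4 changed side of the threshold under a scaling, none under the added count or the strand column. They were Mir3099 (log2 ratio 0.02 with DESeq2 size factors), Mir3102 (0.14), Mir1843a (0.25, passing with library totals) and Mir3064 (-0.51, not passing with library totals). The cause was not tested. The test was not run on a single library. No paired analysis was possible because there is 1 group.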
